A study of Mus musculus with 2 samples.

Results

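The 32 genes described here encode the enzymes that make cholesterol and fatty acids, and the proteins that set the level of those enzymes. The rule names them by symbol and uses no measured value, although the list was drawn up with earlier results of these data known. All 32 were found among the 27998 genes of the count matrix. They comprise 19 enzymes of cholesterol synthesis, 5 regulators, 1 sterol transfer protein and 7 genes of fatty acid synthesis. The series set islets of wild-type mice (WT, 1 library) beside islets of mice with a miR-203 transgene restricted to beta cells (miR-203 TG, 1 library), and both labels name males aged 8 weeks after a fast of 12 hours. Single cells were read with the 10x Genomics 3′ v2 kit, which counts unique molecular identifiers (UMIs), 1 for each captured transcript end. The TG cells were not analysed here, so every value comes from the WT library and none of them bears on the transgene. The labels do not say how many mice gave the islets, and with 1 library no difference can be set against a replicate. All intervals are exact 95% intervals that cover counting error only, and no p-value is given.

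Cholesterol is built from acetyl-CoA, first into mevalonate and isoprenoids, then into squalene and lanosterol, and finally through a chain of changes to the sterol rings. Transcription of these enzymes is driven by the SREBP proteins, encoded by Srebf1 and Srebf2, which are held in the endoplasmic reticulum by the Insig proteins and carried out of it by Scap when sterols are low. Fatty acid synthesis starts from citrate, which Acly splits into acetyl-CoA, and goes on through Acaca, Fasn, elongases and desaturases. In beta cells citrate leaves the mitochondria when glucose is metabolised, and cholesterol is a component of the insulin granule membrane.

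The WT matrix held 118523180 UMIs, of which 88.3% lay in 4547 barcodes called as cells (at least 5610 UMIs and 500 genes). Cells were grouped by the share of their UMIs from hormone genes: 3261 beta cells (insulin at least 30%), 471 alpha cells (Gcg at least 8%), 149 delta cells (Sst at least 3%), 117 PP cells (Ppy at least 8%) and 549 cells that met none of these limits. Median depth ran from 9179 UMIs in delta cells to 23415 in beta cells, and from 7232 to 10595 in the 4 hormone groups once the 7 hormone genes were taken out. Markers went with the groups only in part. The level of Ucn3, which marks mature beta cells, was 244 counts per 1000000 UMIs (CPM) in beta cells. In the other hormone groups it was 24.8 to 28.4. The alpha cell marker Irx1 stood at 47.3 in alpha cells and at 0.732 to 10.4 in the others. The delta cell marker Hhex stood at 122 in delta cells and at 1.12 to 8.66 in the others. Of the beta cell markers, Pdx1 was higher in delta cells (71.4) than in beta cells (45.7). Slc30a8 was 240 in beta and 210 in alpha cells, and Mafa stood at 0.108 in beta cells. Of the PP cell markers, Cd200 was highest in delta cells (264, against 207 in PP cells) and Tmem100 was at 0 in PP cells. Of the alpha cells 48 met a second hormone limit as well, and of the delta cells 12. The 549 cells under every limit still held insulin, at a median of 8.03% of their UMIs, and beta cell markers at 35942 CPM as a list sum. They also held macrophage, endothelial and erythroid markers (1483, 932 and 4666 CPM) and were given no name. Adipocyte markers, the list of another fat-making cell type, summed to 0 to 0.755 CPM in every group, with Adipoq and Lep at 0 in each of the 4 hormone groups. The labels also describe a sort of intestinal goblet cells, whose markers summed to 0.127 to 5.51 CPM.

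The promoters of 26 of the 32 genes were in the RefSeq table of mouse build GRCm38.p6, as windows of 250 bases before each annotated start. The stretches below are the parts of those windows that hold no annotated exon, for the cholesterol enzymes Hmgcs1 and Mvd, for the regulators Insig1 and Srebf2, and for Acly, the most abundant member. Capitals mark TCACNCCA, a core like that of sterol regulatory elements, and CCAAT, the box bound by NF-Y, on either strand (ATTGG is CCAAT read from the other strand). The stretch of Hmgcs1 lies at chr13:119690101-119690350 on the plus strand, Mvd at chr8:122443423-122443672 on the minus strand, Insig1 at chr5:28071162-28071362 on the plus strand, Srebf2 at chr15:82147019-82147180 on the plus strand and Acly at chr11:100528001-100528250 on the minus strand. The genes themselves span chr13:119690379-119708260 (Hmgcs1), chr8:122433601-122443422 (Mvd), chr5:28071363-28078662 (Insig1), chr15:82147181-82205379 (Srebf2) and chr11:100476353-100528000 (Acly).
Hmgcs1: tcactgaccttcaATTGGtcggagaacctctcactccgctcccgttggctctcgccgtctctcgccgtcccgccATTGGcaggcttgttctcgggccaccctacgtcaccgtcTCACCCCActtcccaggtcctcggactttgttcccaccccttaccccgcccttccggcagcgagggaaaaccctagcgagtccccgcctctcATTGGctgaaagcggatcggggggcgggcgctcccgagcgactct
Mvd: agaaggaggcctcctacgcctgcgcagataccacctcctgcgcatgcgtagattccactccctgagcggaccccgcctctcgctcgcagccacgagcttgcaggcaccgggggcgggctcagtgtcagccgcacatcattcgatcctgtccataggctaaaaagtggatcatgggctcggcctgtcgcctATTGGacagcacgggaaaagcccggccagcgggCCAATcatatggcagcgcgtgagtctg
Insig1: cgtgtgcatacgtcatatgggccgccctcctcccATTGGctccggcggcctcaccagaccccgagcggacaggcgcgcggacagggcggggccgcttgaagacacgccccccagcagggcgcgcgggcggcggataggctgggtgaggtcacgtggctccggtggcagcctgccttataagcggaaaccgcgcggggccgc
Srebf2: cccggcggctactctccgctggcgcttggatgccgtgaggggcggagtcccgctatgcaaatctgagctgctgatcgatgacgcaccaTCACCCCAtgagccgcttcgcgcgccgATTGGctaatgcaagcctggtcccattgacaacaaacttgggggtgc
Acly: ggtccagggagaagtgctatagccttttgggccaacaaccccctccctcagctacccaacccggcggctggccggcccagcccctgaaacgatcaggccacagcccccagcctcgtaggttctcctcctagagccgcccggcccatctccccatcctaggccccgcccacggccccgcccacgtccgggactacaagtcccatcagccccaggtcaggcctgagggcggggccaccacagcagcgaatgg

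CCAAT occurred in the windows of 21 of the 26 genes (80.8%), against 37.5% of all 27025 genes in the table. Some genes have several windows, and among those with 1 window it occurred in 16 of 20 members (80%) and in 34.7% of all genes. All CCAAT matches of Cyp51, Dhcr7, Idi1, Msmo1 and Tm7sf2 lie inside annotated exons. The shares of all genes were not limited to genes expressed in islets. TCACNCCA occurred in 3 members (11.5%, against 4.20% of all genes), 137 bases before the RefSeq start of Hmgcs1, 177 before that of Msmo1 and 162 before that of Srebf2. The RefSeq starts of Hmgcs1 and Srebf2 differ from the gene starts given above, and the match in Msmo1 lies inside an annotated exon. The longer TCACNCCAC occurred in Hmgcs1 alone among the 26, and in 1.22% of all genes. The other 5 spellings searched on both strands, several of which overlap these, were TCACCCCAC (1 member, 0.555% of all genes), CACNCCAC (3 members, 6.05%), ATCACGTGA (0 members, 0.326%), CACGTG (5 members, 6.86%) and ACCCCNCC (7 members, 11.5%). A match describes letters in these windows and is not a binding site. A window without a match says nothing about the factor.

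Levels are given as UMIs per 1000000 non-hormone UMIs, written here as ppm, because insulin mRNA alone took up a median of 50.6% of the UMIs of a beta cell. UMIs counted at the 3′ end are not divided by transcript length, so levels of different genes compare captured molecules. In beta cells the members ran from 0.914 ppm for Scd1 to 626 for Acly. The median member stood at 32.6, against 8.2 for all 17983 genes with a UMI in beta cells. The leading genes were Acly, Hmgcs1, Insig1 and Msmo1, and each of these stood apart from the next by more than its interval. Of all 31 neighbouring pairs in the order 20 had overlapping intervals, so neighbours among the lower genes mostly do not differ beyond counting error.

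Among the early enzymes, the level was uneven from step to step. Hmgcs1, the cytosolic HMG-CoA synthase, stood at 342 ppm in beta cells (336 to 348). The kinases and decarboxylase that follow were far lower, with Mvk at 10.8, Pmvk at 51.5 and Mvd at 19.7 ppm. Idi1, the isopentenyl diphosphate isomerase, stood at 75.9, and Fdps, which makes farnesyl diphosphate, at 104 ppm. Acat2, the thiolase before Hmgcs1, was among the lowest members at 9.14, and Ggps1, which branches off to geranylgeranyl diphosphate, stood at 31.8 ppm. Of the genes from squalene to lanosterol, Fdft1 (squalene synthase) stood at 95 and Sqle (squalene epoxidase) at 81.6, while Lss (lanosterol synthase) stood at 19.3 ppm.

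The highest of the enzymes after lanosterol were Msmo1 and Cyp51. Msmo1, a methylsterol monooxygenase, stood at 181 ppm in beta cells (177 to 186), and Cyp51, the lanosterol demethylase, at 98.3 (95.1 to 102). The sterol isomerase Ebp stood at 34.8 and the desaturase Sc5d at 28.5 ppm. The reductases and dehydrogenases of this stretch, among them Nsdhl and Hsd17b7 of the same demethylation as Msmo1, were low: Dhcr7 stood at 16.6, Hsd17b7 at 12.0, Nsdhl at 8.67 and Tm7sf2 at 4.04 ppm. High and low genes stood side by side along the whole chain, with Hmgcs1 and Msmo1 the highest of the 19 enzymes.

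Of the regulators, Insig1 stood highest, at 229 ppm (225 to 234), with Insig2 at 55.6. Srebf2, which mainly drives cholesterol genes, stood at 81.1 ppm, and Srebf1, which mainly drives fatty acid genes, at 30.7. Scap stood at 32 ppm and Stard4, a soluble carrier of sterols between membranes, at 60.0. In the fatty acid group, Acly stood at 626 ppm (617 to 634), while Acaca and Fasn, the enzymes that use its product, stood at 15 and 33.2. Scd2, a stearoyl-CoA desaturase, stood at 48.6 and the elongase Elovl6 at 28.6. Me1, the cytosolic malic enzyme that supplies NADPH, stood at 15.8 ppm.

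Scd1, the desaturase of fat and liver, was rarely detected in islet cells. Over all 4547 cells it gave 86 UMIs in 62 cells, with at most 6 in 1 cell. Of these, 44 UMIs came from 21 of the cells that met no hormone limit. In delta cells it was at 0, which allows a level of up to 2.26 ppm by 3 counts. Scd2, its close relative, was detected in every group, at 48.6 ppm in beta, 33.8 in alpha, 34.7 in delta and 36.0 in PP cells.

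**Figure D1:**
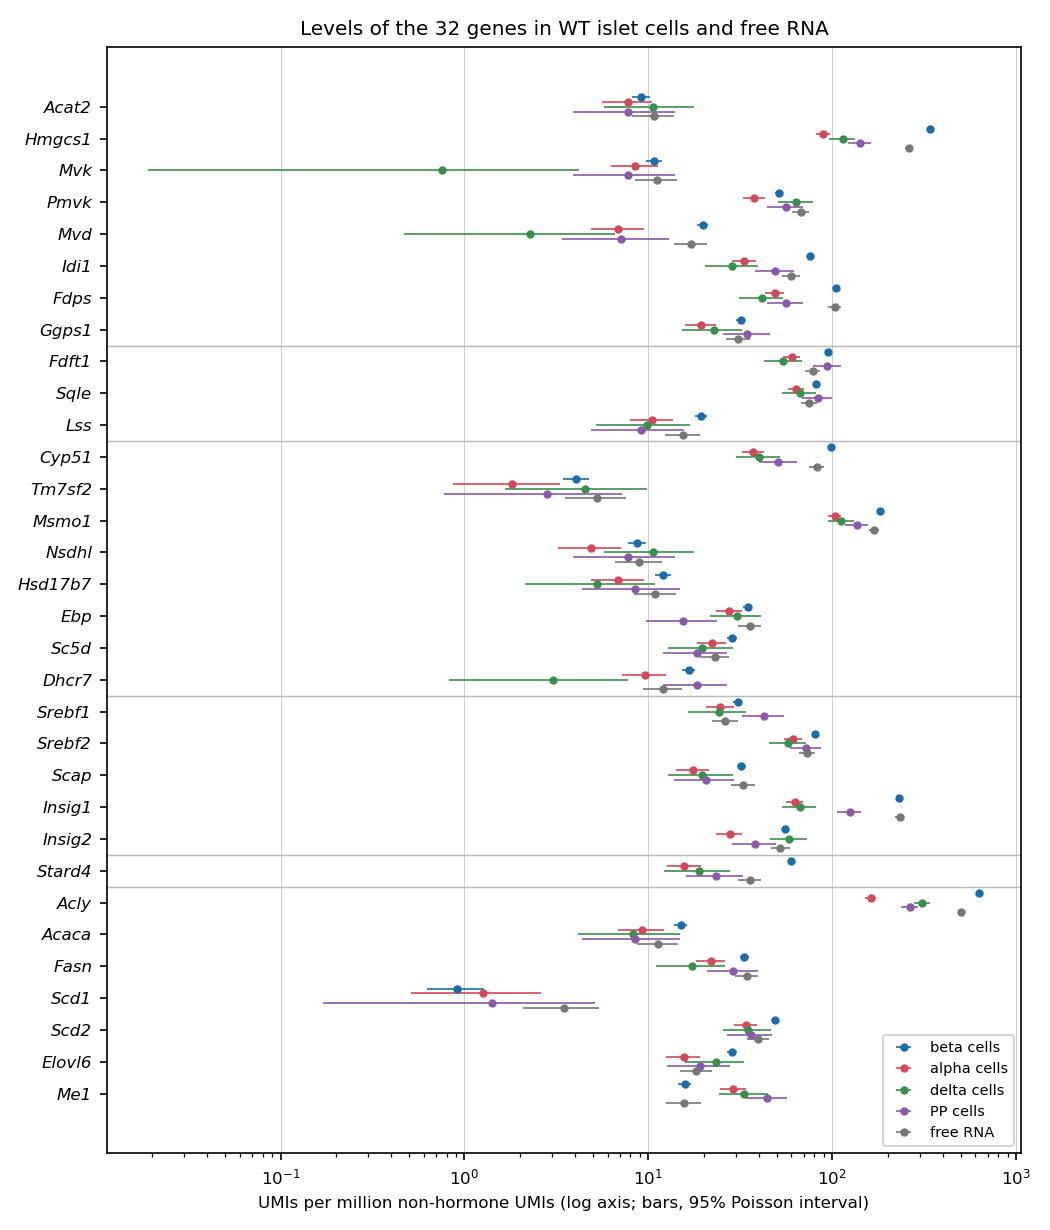
Level of each member (rows, in the order of the pathway, with grey lines between the groups of genes) in ppm on a log axis, for the 4 hormone groups and free RNA, with 95% Poisson intervals; Scd1 in delta cells, at 0, is not drawn. Hmgcs1, Insig1, Stard4 and Acly lie to the right in beta cells, Me1 lies to the left, and free RNA (grey) lies near beta cells for most genes.

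Summed over the 19 cholesterol enzymes, beta cells held 1225 ppm (1214 to 1237), PP cells 803 (757 to 851), delta cells 639 (597 to 684) and alpha cells 599 (579 to 620). The intervals of alpha and delta cells overlapped, and those of the others did not. The fatty acid group summed to 768 ppm in beta cells, 426 in delta, 402 in PP and 272 in alpha cells, and Acly made up most of it in each. Free RNA, read from 589592 barcodes of at most 200 UMIs, held the cholesterol enzymes at 1078 ppm, near the beta cell level. The share of UMIs that free RNA could supply was at most 9.33% in alpha, 14.9% in delta and 14.8% in PP cells, from the insulin they held.

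Ratios between groups were taken for the 22 members that reached 20 ppm in either group of a pair, and were set relative to the median gene. The ratio of the median gene was log2 0.35 for beta over alpha, 0.03 for beta over delta and 0.11 for beta over PP cells. The same 22 members passed in each pair. The other 10 (Acat2, Mvk, Mvd, Lss, Tm7sf2, Nsdhl, Hsd17b7, Dhcr7, Acaca and Scd1) were not compared. A gene was counted as higher or lower when its ratio passed 1.5-fold. In beta over alpha cells 8 members were higher and 1 was lower, where 16.8% of the 6709 genes compared were higher and 15.4% lower. In beta over delta cells 11 were higher and 1 lower, where 17.5% of 7061 genes were higher and 16.8% lower. In beta over PP cells 7 were higher and 1 lower, where 15.9% of 6847 genes were higher and 14.5% lower. The median member lay at log2 0.42, 0.59 and 0.45 above the median gene in these 3 pairs. Beta cells stand in all 3, so the pairs are not independent.

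Some of the genes counted reached the floor in 1 group alone, which favours a difference: Stard4 did so only in beta cells against alpha and delta cells, Scap and Fasn against delta cells, Ebp against PP cells, and Me1 only in the other groups. Without the floor all 32 members were compared. Then 10 were higher and 2 lower than in alpha cells (29% and 24.8% of all genes), 16 higher and 1 lower than in delta cells (33.3% and 26.8%), and 9 higher and 3 lower than in PP cells (33% and 25%). On that wider count the share of higher members lay near that of all genes for alpha and PP cells, which is then no result about the list as a whole.

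The 6 members higher in beta cells in all 3 pairs were Hmgcs1, Fdps, Cyp51, Insig1, Stard4 and Acly. The share of all genes higher in all 3 pairs was not counted, so this number has no background and is no result about the list. Hmgcs1 stood at 342 ppm in beta, 89.1 in alpha, 114 in delta and 141 in PP cells. Relative to the median gene this was log2 1.59 over alpha (1.46 to 1.73), 1.56 over delta and 1.16 over PP cells. After every cell was thinned to 3000 non-hormone UMIs (47 beta cells and 1 PP cell were shallower), 57.2% of beta cells still had an Hmgcs1 UMI, against 21.9% of alpha, 24.8% of delta and 35.3% of PP cells. Unthinned, the shares were 87.1%, 59.4%, 51.7% and 70.9%. No islet cell type is known to lack this gene, so no background share could be read from one. Its level in free RNA was 263 ppm, and free RNA could supply at most 21.8% of its level in alpha, 24.9% in delta and 27.5% in PP cells.

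Insig1, which holds Scap in the endoplasmic reticulum and is itself a target of the SREBP proteins, stood at 229 ppm in beta, 62.7 in alpha, 66.4 in delta and 124 in PP cells. Its relative Insig2 had another pattern, at 55.6 in beta, 27.7 in alpha, 58.1 in delta and 38.1 ppm in PP cells. Insig2 passed 1.5-fold over alpha cells, at log2 0.66 (0.42 to 0.91). Over PP cells its ratio was log2 0.43 (0.04 to 0.85), and over delta cells its ratio was log2 -0.09 (-0.42 to 0.26). Stard4 stood at 60.0 ppm in beta, 15.7 in alpha, 18.9 in delta and 23.3 in PP cells, a log2 ratio of 1.58, 1.64 and 1.25 over the median gene. Acly, the ATP citrate lyase, stood at 626 ppm in beta, 162 in alpha, 309 in delta and 264 in PP cells. Its log2 ratio was 1.60 over alpha (1.51 to 1.70), 0.99 over delta and 1.13 over PP cells, and delta and PP cells had overlapping intervals.

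Fdps stood at 104 ppm in beta and at 48.6, 41.5 and 55.8 in alpha, delta and PP cells. Cyp51 stood at 98.3 in beta and at 37.2, 40.0 and 50.8 in those groups. For both genes the 3 other groups lay close to each other and beta cells stood apart from all of them. Idi1 was higher than in alpha and delta cells, at 75.9 ppm against 33.3 and 28.7. Over PP cells, at 48.7 ppm, its ratio to the median gene was log2 0.53 (0.18 to 0.89), short of the limit, which it passed with all UMIs, without centring and with free RNA taken off (up to 0.64). Fdft1, Msmo1, Scap and Fasn passed 1.5-fold over delta cells, with log2 ratios of 0.78, 0.67, 0.68 and 0.91. They did not pass over alpha or PP cells, and the difference between the pairs was not tested. Scap, at 0.52 over alpha and 0.53 over PP cells, had overlapping intervals in all 3 pairs. Without centring, where 33% of all genes were higher, all 4 genes passed over alpha cells. The call of Msmo1 was lost in cells of at least 10000 UMIs (0.57) and without the floor (0.49), and that of Scap without the floor (0.49). Ebp passed over PP cells, at 34.8 ppm against 15.5, or log2 1.05 (0.45 to 1.73), and its ratios over alpha and delta cells were -0.01 and 0.18.

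Sqle, the squalene epoxidase, stayed within 1.5-fold of the median gene in each pair. It stood at 81.6 ppm in beta, 63.6 in alpha, 66.4 in delta and 83.3 in PP cells. Its log2 ratios to the median gene were 0.01, 0.27 and -0.14. Before centring, its ratio of beta over alpha cells was 1.28 (1.15 to 1.44). Srebf2, at 81.1, 61.3, 57.4 and 72.0 ppm, also stayed within 1.5-fold in each pair. The same was true of Pmvk, Ggps1, Sc5d, Srebf1, Scd2 and Elovl6 by the main count. Of these only Pmvk stayed inside under every alternative, as Sqle and Srebf2 did. Elovl6 lay at log2 0.53 over alpha (0.22 to 0.87) and 0.48 over PP cells (-0.07 to 1.08), and passed in both pairs without centring. Srebf1 stood at 42.4 ppm in PP cells, above its 30.7 in beta cells, at log2 -0.58 (-0.95 to -0.18), just inside the limit.

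Me1 was the exception in the other direction. It stood at 15.8 ppm in beta cells, 28.9 in alpha, 33.2 in delta and 44.5 in PP cells. Its log2 ratio was -1.22 over alpha (-1.48 to -0.96), -1.10 over delta and -1.61 over PP cells, and its level in free RNA was 15.7 ppm. Of the 22 members compared it was the only one lower in beta cells by over 1.5-fold, in each of the 3 pairs. The share of all genes lower in all 3 pairs was not counted.

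**Figure D2:**
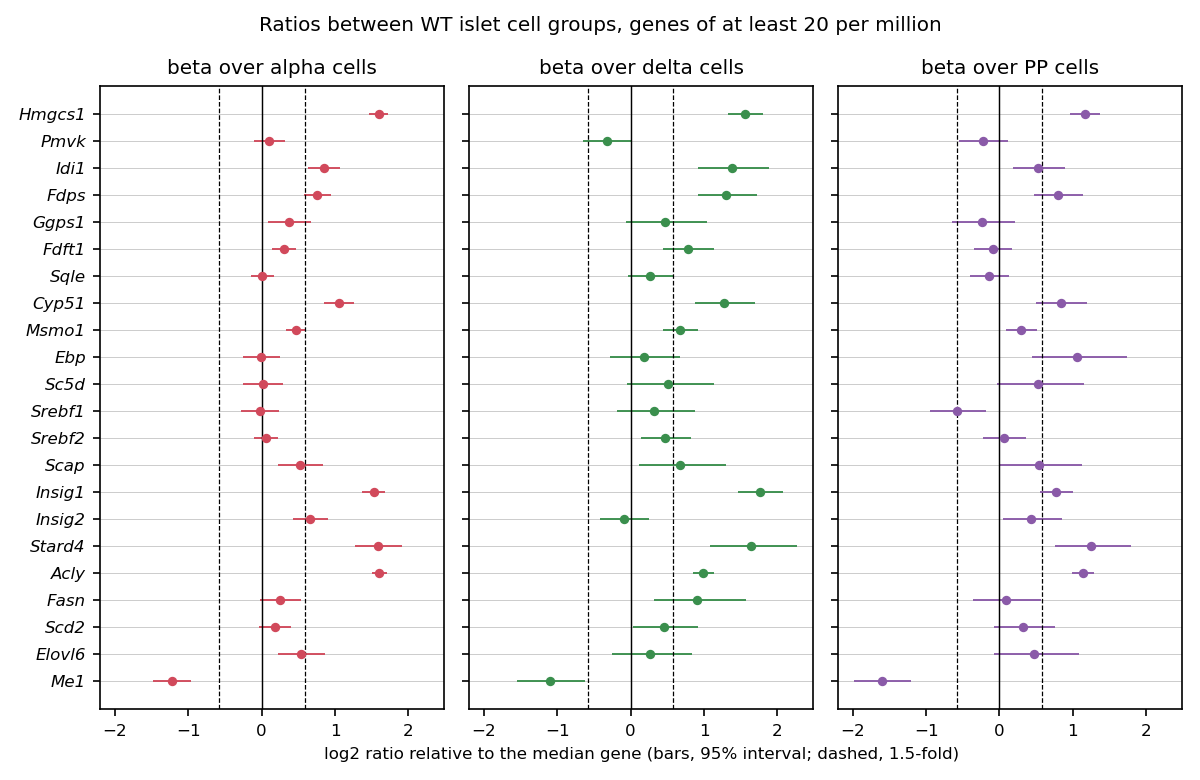
Log2 ratio of beta over alpha, delta and PP cells relative to the median gene (x axis) for the 22 members compared (rows), with 95% intervals; dashed lines mark 1.5-fold. Hmgcs1, Fdps, Cyp51, Insig1, Stard4 and Acly lie beyond the right line in all 3 panels and Me1 beyond the left line, while Sqle lies near 0.

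A list of 52 other genes of sterol and fatty acid metabolism was counted the same way. Of these 8 were higher and 5 lower in beta over alpha cells (35 compared), 15 and 5 in beta over delta cells (37 compared), and 9 and 6 in beta over PP cells (36 compared). Over all genes the shares higher and lower were 16.8% and 15.4%, 17.5% and 16.8%, and 15.9% and 14.5% in these pairs. The counts of lower genes lie near that background. Those of higher genes lay above it by few genes over alpha and PP cells, and further above it over delta cells. The compared genes of the list had a median of log2 0.17, 0.41 and 0.22 over the median gene. For the 11 cholesterol enzymes compared it was 0.37, 0.67 and 0.52. Nr1h3, the liver X receptor that turns on genes of sterol export, was among the highest in each pair, at 21.5 ppm in beta cells and 2.89, 4.53 and 4.24 in alpha, delta and PP cells (16, 6 and 6 UMIs). Mlxipl, a glucose-responsive factor that drives fatty acid genes, stood at 248 ppm in beta and 38.0 in alpha cells, and Abca1, a sterol exporter, at 60.5 in beta and 21.1 in delta cells. Acss2, an acetyl-CoA synthetase, was the highest over PP cells, but rests on 3 UMIs there. The lowest were the elongase Elovl7, at 12.7 ppm in beta and 30.2 to 32.5 in the others, with Npc2 against alpha cells (331 and 593), Fabp5 against delta cells (5.37 and 37.0) and Idh1 against PP cells (24.1 and 57.2). Nr1h3 and Acss2 reached the floor of 20 ppm only in beta cells, and Elovl7 and Fabp5 only in the other group, which favours their place at the ends.

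Within beta cells the members varied to different degrees. The variance of a gene's UMIs over its mean, in cells thinned to 3000 non-hormone UMIs, is near 1 where only sampling acts, and its median over 6407 genes was 1.03. Hmgcs1 reached 1.47, above 97.9% of those genes. Of its 3214 cells 1375 had no thinned UMI, 970 had 1, 489 had 2 and 380 had 3 or more. Acly followed at 1.23 and Insig1 at 1.2. Stard4, Idi1, Msmo1, Elovl6, Fdps, Cyp51 and Scd2 lay between 1.12 and 1.14, so that 10 of the 23 members measured lay above the 90th percentile of all genes (1.11). Others of like level lay near the sampling value, such as Fdft1 at 1.02, Srebf2 at 1.03 and Insig2 at 1.00. The 6407 genes were not matched to the members by level. Acly, Hmgcs1, Insig1 and Msmo1 also had the highest mean thinned UMIs of the 23 members (1.94, 1.04, 0.685 and 0.535).

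Level also went with insulin share and depth. Beta cells were split into 3 equal parts of 1087 cells by insulin share, and the cholesterol enzymes summed to 1277, 1268 and 1125 ppm from the lowest to the highest part. Hmgcs1 stood at 379, 369 and 274 ppm in these parts. Fdps ran the other way, at 90.2, 107 and 118, as did Ebp at 30.4, 34.3 and 40.2. Insig1 differed little, at 221, 236 and 233 ppm. Split by total UMIs instead, Hmgcs1 stood at 390, 369 and 295 ppm from the shallowest to the deepest part, Acly at 698, 640 and 575 and Elovl6 at 35.7, 30.3 and 23.5, while Fdps stood at 90.8, 90.2 and 122. The 2 splits share cells, and their part in the relations below was not tested beyond the alternatives given there.

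Whether the members moved together from cell to cell was described by Pearson's r over the 3261 beta cells, on residuals that take out each cell's non-hormone depth, for the 29 members with a mean of at least 0.1 UMI. Cells share 1 library, and no p-value is attached. Over the 136 pairs of the 17 cholesterol enzymes measured the median r was 0.0174, against 0.000626 for all gene pairs. Such a value is near 0 in sparse counts and is no finding by itself. Of the 136 pairs 8 (5.88%) reached 0.1, against 0.176% of all pairs, which were not matched to them by level. This count changed with the UMIs and cells used. After thinning to 3000 non-hormone UMIs 1 of the 136 did. In the upper 50% of beta cells by total UMIs 14 of 153 did, with 18 enzymes measured. In the lower 50% 7 of 105 did, with 15 enzymes measured. The highest were Hmgcs1 with Msmo1 at 0.197, Hmgcs1 with Idi1 at 0.183 and Hmgcs1 with Cyp51 at 0.178. The lowest pair of all members was Fdps with Acly at -0.0618.

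**Figure D3:**
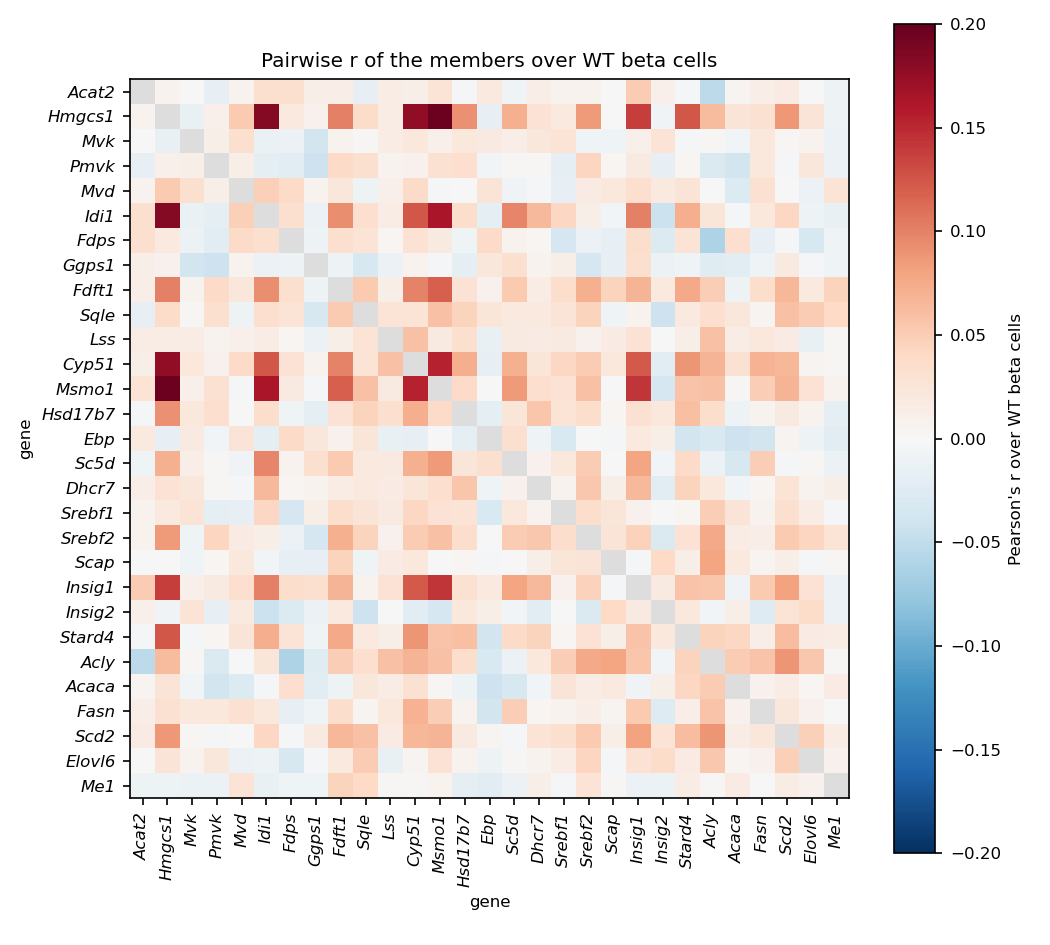
Pearson's r over the 3261 WT beta cells for each pair of the 29 members measured (both axes, in the order of the pathway; red above 0, blue below, grey on the diagonal, scale ends at 0.2). The dark squares join Hmgcs1, Idi1, Cyp51, Msmo1 and Insig1, and most other pairs are near 0.

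Each gene was then set against the sum of the cholesterol enzymes other than itself. Of the members 10 reached an r of 0.1, where 0.275% of the 8728 other genes, which were not matched to the members by level, did. Among the enzymes these were Msmo1 (0.223), Hmgcs1 (0.221), Cyp51 (0.211), Idi1 (0.202), Fdft1 (0.155) and Sc5d (0.116). Outside the enzymes they were Insig1 (0.208), Stard4 (0.132), Scd2 (0.105) and Srebf2 (0.103), of which Insig1 and Srebf2 belong to the control of the pathway itself. Acly, the most deeply counted member, had an r of 0.0474, and Fdps, an enzyme of the chain counted as deeply as Cyp51, of 0.0488. Both lay under 0.1 but past the 95th percentile of the other genes, 0.0450. Insig2, at -0.0280, lay above 13.3% of them.

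**Figure D4:**
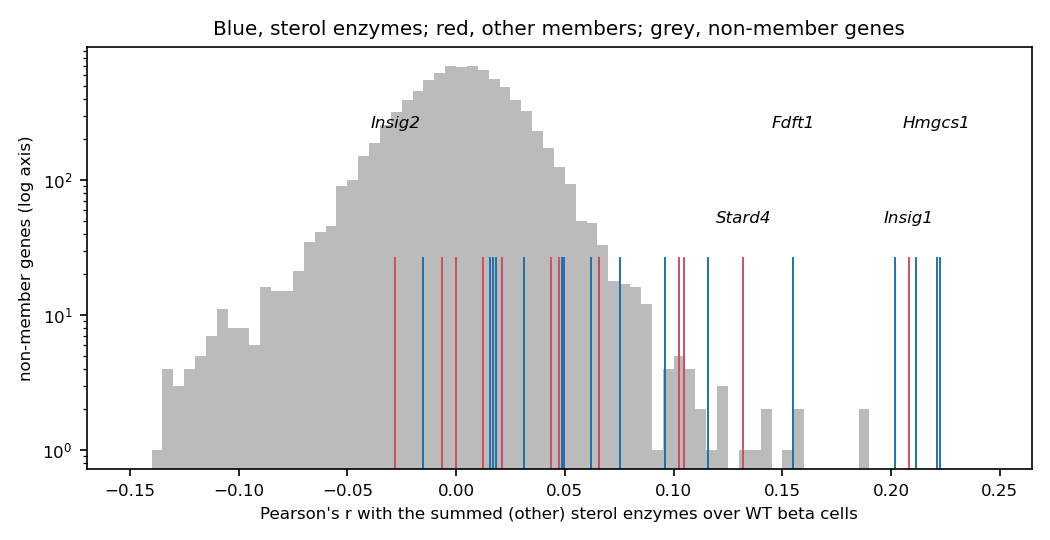
Number of non-member genes (grey bars, log axis) by Pearson's r with the summed cholesterol enzymes over the 3261 WT beta cells (x axis), with each enzyme as a blue line and each other member as a red line. Hmgcs1, Msmo1, Cyp51, Idi1 and Insig1 lie to the right of every grey bar, and Insig2 lies at -0.0280.

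Of the 8728 other genes, those with the highest r to the enzyme sum were Calr (0.188), Hspa5 (0.185), Herpud1 (0.158), Pdia4 (0.156) and Hsp90b1 (0.153), chaperones and a degradation factor of the endoplasmic reticulum. Hsph1 (0.138), a cytosolic chaperone, Ddit3 (0.131), a transcription factor of the stress response, and mt-Nd2 (0.123), a mitochondrially encoded subunit of the respiratory chain, came after them. Among the lowest were the translation factor Eef1a1 (-0.139) and the ribosomal protein gene Rpl14 (-0.132). As summed lists, 16 genes of the folding response had an r of 0.235 with the enzyme sum, 9 of the integrated stress response 0.0904, 9 early genes 0.0301 and 9 ribosomal protein genes -0.126. The insulin share had an r of -0.0781, the mitochondrial share 0.112 and total UMIs -0.0816.

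To put sizes to this, beta cells were sorted by their thinned Hmgcs1 UMIs and the levels of the other members were read from all their UMIs. Idi1 stood at 61.6 ppm in cells with 0, 79.7 with 1, 89.7 with 2 and 101 with 3 or more Hmgcs1 UMIs, a ratio of 1.65 from the last to the first (1.46 to 1.85). Cyp51 stood at 86.0, 101, 107 and 127 ppm, a ratio of 1.48 (1.33 to 1.64). Msmo1 stood at 157, 191, 202 and 221, a ratio of 1.41 (1.31 to 1.53). All of these enzymes rank the 4 sets of cells in the order of Hmgcs1, whose own level is not a result here.

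Insig1 stood at 211, 229, 243 and 273 ppm, a ratio of 1.29 (1.21 to 1.39). Stard4 stood at 51.4, 63.8, 70.1 and 69.8, a ratio of 1.36 (1.18 to 1.56). Elovl6, a fatty acid elongase, stood at 26.5, 29.6, 26.5 and 37.2, a ratio of 1.41 (1.16 to 1.70), which rests on the last set alone. Mvd and Fdft1 had ratios of 1.33 and 1.27. Acly, at 605, 632, 664 and 646 ppm, had a ratio of 1.07 (1.02 to 1.12), small but with an interval above 1, and Srebf2 one of 1.17 (1.03 to 1.31). Pmvk (1.05), Srebf1 (0.987), Insig2 (0.984) and Ggps1 (0.983) had intervals that held 1.

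Of the 22 members compared, 1 (Idi1) passed 1.5-fold, where 0.167% of 6592 genes were higher and 0.425% lower. At 1.25-fold, a limit chosen after the data were seen, 8 members were higher and 0 lower, where 3.34% of genes were higher and 4.57% lower. Thinning with another seed left 6 (3.98% of genes higher): Fdft1, Insig1 and Elovl6 no longer passed and Sc5d did. The folding response list moved with the same split, at 13112, 14029, 14203 and 14863 ppm. Among beta cells above the median of that list 4 members passed 1.25-fold (Idi1, Msmo1, Insig1 and Elovl6), where 4.97% of genes did. Among those below it 5 of 21 members did (Idi1, Lss, Cyp51, Msmo1 and Stard4), where 8.85% of genes did. Idi1 passed 1.25-fold under all 8 alternatives, which include sorting by Msmo1 or by Insig1 in place of Hmgcs1.

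A second split, by the thinned sum of all cholesterol enzymes and also chosen after the data were seen, set 1050 cells with 5 to 16 such UMIs against 529 with 0 or 1. It leaves the members outside the enzymes to be read. Stard4 stood at 71.7 against 48.9 ppm, a ratio of 1.47 (1.28 to 1.68), and Insig1 at 267 against 193, a ratio of 1.39 (1.29 to 1.48). Srebf2 had a ratio of 1.33 (1.18 to 1.49) and Scd2 of 1.29 (1.11 to 1.5). These 4 of the 10 compared passed 1.25-fold and 0 fell below it, where 2.49% of genes were higher and 2.84% lower. Insig2 lay on the other side of 1, at 54.1 against 62.3 ppm, a ratio of 0.868 (0.762 to 0.990). Fasn, at 1.21 (1.01 to 1.44), and Acly, at 1.08 (1.04 to 1.12), did not pass 1.25-fold but had intervals above 1. Srebf1 (1.06), Scap (0.978) and Elovl6 (1.10) had intervals that held 1.

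**Figure D5:**
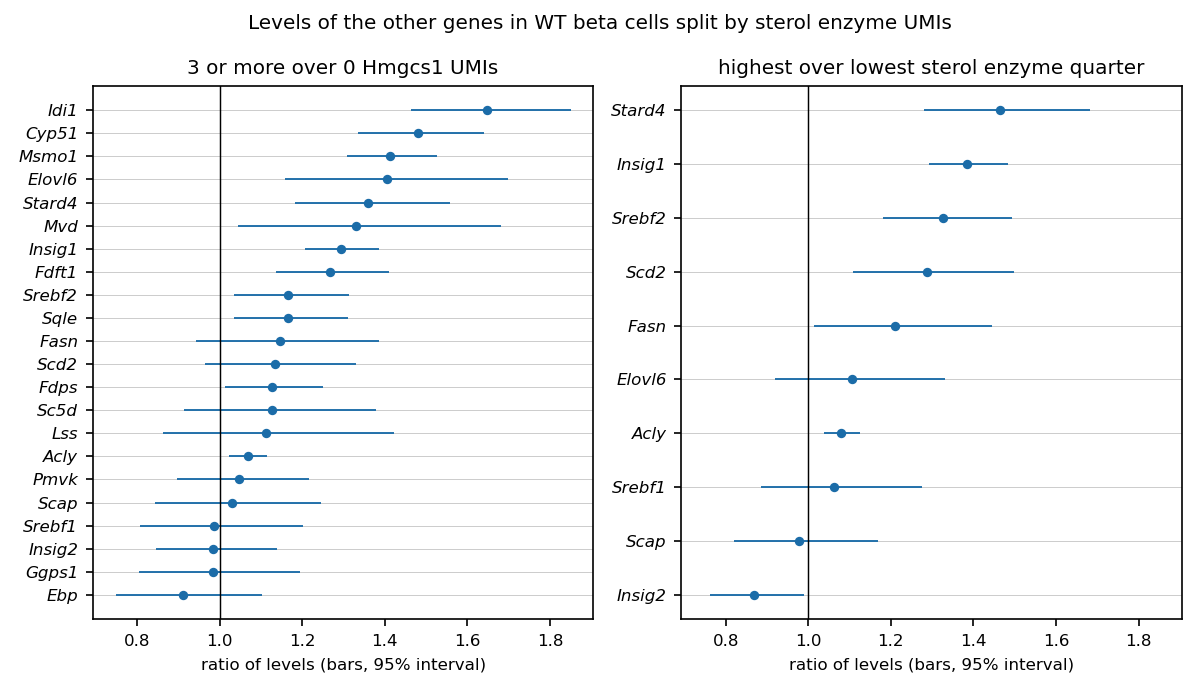
Ratio of levels (x axis, with 95% intervals) of the members compared, left between beta cells with 3 or more and with 0 thinned Hmgcs1 UMIs, right between cells with the highest (5 to 16) and lowest (0 or 1) thinned sums of cholesterol enzymes. Idi1, Cyp51 and Msmo1 lead on the left, Stard4 and Insig1 on the right, where Insig2 lies below 1.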

How the data were processed

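Islets of 1 WT and 1 miR-203 TG library were measured by single-cell RNA sequencing, and the WT library was analysed here. The deposited values are raw UMI counts per gene and barcode, per the file headers, unfiltered and not normalised. FastQC, Trimmomatic and the build mm10 appear in the submitters' processing notes. For alignment, counting and annotation, tools were not given in the sources used here.

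Cells were barcodes of at least 10% of the UMIs at the 99th percentile of the top 3000 barcodes (5610) and at least 500 genes, grouped by hormone share in the order beta, alpha, delta, PP. Doublets were not removed by a caller, and cells over 2 limits or with the most UMIs were left out as alternatives. Counts were summed per group. Levels have exact Poisson intervals and ratios exact conditional binomial intervals. With 1 library per group no test over samples is possible. Genes of at least 20 ppm (UMIs per 1000000 non-hormone UMIs) in either group were compared. Co-variation used analytic Pearson residuals (theta 100), and thinning used a fixed seed of 7. Gene positions and exons are those of GENCODE vM21 on GRCm38, the same assembly as mm10, and promoter windows are those of RefSeq. The steps were tested on simulated data. Python 3.11.15, numpy 2.4.6, scipy 1.17.1, pandas 2.3.3 and matplotlib 3.10.9 were used.

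The members, lists and tests were chosen with earlier results of these data known. Named genes are all 32 members, the 2 highest and 2 lowest of 52 other pathway genes in each pair, and the 10 highest and 3 lowest other genes by r with the enzyme sum. Of these other genes by r, 3 are not reported here. Alternatives changed the UMIs counted, centring, floors, cells, free RNA and residuals. Between 24 and 36% insulin lay 374 cells, between 6.4 and 9.6% Gcg 45, between 2.4 and 3.6% Sst 36, and between 6.4 and 9.6% Ppy 40.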

Additional observations from a re-analysis of the deposited data

How the results depend on the processing

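Of the members counted as higher or lower, 9 of 9 against alpha cells, 8 of 8 against PP cells and 10 of 12 against delta cells kept their call under every alternative that compared them, the exceptions being Msmo1 and Scap. Counts past 1.5-fold moved to 15 (from 9) against alpha cells without centring on the median gene. There 33% of all genes were higher and 8.5% lower, against 16.8% and 15.4% by the main count. Against PP cells they moved to 13 (from 8) with free RNA taken off. There 19.7% of all genes were higher and 17.9% lower, against 15.9% and 14.5% by the main count. The median r of the cholesterol enzymes moved from 0.0174 to 0.00416 after thinning to 3000 non-hormone UMIs and to 0.0292 with a mean of at least 0.3 UMI. Its pairs of at least 0.1 fell from 8 to 1 after that thinning and numbered 6 to 14 under the other alternatives. The share of all gene pairs was not taken under any of these alternatives. In the split by Hmgcs1 the 8 members past 1.25-fold moved to 4 above and 5 below the median of the folding response, and to 6 with another thinning seed, where 3 of the 8 were lost and Sc5d was gained. The causes were not tested, among them the smaller number of UMIs that thinning leaves. All 32 beta cell levels stayed inside their intervals under 3 alternatives, at 0.971 to 1.03 times the main value. That range came from equal weight for each cell, and stricter depth and mitochondrial limits gave 0.987 to 1.01. Keeping only cells that met exactly 1 hormone limit left out 3 of 3261 beta cells, so it could change little. No paired analysis was possible because each group has 1 library and the TG cells were not analysed here. Depth limits the rarest members most, and in delta and PP cells Mvk, Mvd and Dhcr7 rest on 1 to 26 UMIs.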
